A study of Homo sapiens with 12 samples.

Results

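The genes described here are 10 tubulin isotypes measured by RNA-seq in rhabdomyosarcoma (RMS) cells with and without depletion of the histone demethylase KDM3A. They are the alpha-tubulin genes TUBA1A, TUBA1B, TUBA1C and TUBA4A and the beta-tubulin genes TUBB, TUBB2A, TUBB2B, TUBB3, TUBB4B and TUBB6, taken by gene symbol from a deposited table of 65975 gene identifiers. The 10 symbols cover 18 identifiers. TUBB alone has 8, of which 7 are listed at 0 in all 12 libraries, and TUBB3 has a second one for a read-through transcript with the neighbouring gene. One identifier was used for each symbol, the one with the highest mean. All 10 isotypes were above the mean of 1 FPKM that a gene needed to enter a comparison.

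RD is a cell line of fusion-negative RMS (FN-RMS) and Rh30 a line of fusion-positive RMS (FP-RMS). Cells of each line were stably transduced with a lentiviral shRNA and selected with puromycin, and the 4 groups were RD Scramble, RD KDM3A-sh2, Rh30 Scramble and Rh30 KDM3A-sh2, with 3 libraries each. Scramble is a control shRNA without a target and KDM3A-sh2 a single shRNA against KDM3A, so an effect of KDM3A loss and an effect of that one shRNA sequence cannot be told apart. Each subtype was represented by 1 line and the lines were grown in different media, so differences between RD and Rh30 are differences between these cultures. Whether a group's 3 libraries stem from separate cultures is not given in the sources, so p-values measure the spread between libraries, which may be technical. The deposited column labels of the 3 Rh30 Scramble libraries end in the same number, and those of each other group end in different numbers. What that number stands for is not given.

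Microtubules are hollow polymers of alpha- and beta-tubulin heterodimers that form the mitotic spindle, the tracks of motor proteins and, in muscle precursors, the long arrays along which myoblasts elongate. Human cells carry several genes for each subunit, and the proteins they encode are nearly alike in the folded body and differ mostly in a short acidic carboxy-terminal tail. The tail faces the outside of the microtubule and is the place where enzymes add glutamate or remove the last tyrosine. Tubulin messages are also under autoregulation, since free heterodimers in the cytosol trigger the decay of tubulin mRNA during its translation.

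The last 60 coding bases, which encode the 20 residues of the tail end, are shown for 4 beta isotypes, because they mark how far the genes described below can be told apart. Each sequence is the coding end of the principal GENCODE 29 transcript without the stop codon, read 5′ to 3′, and the capitals mark in-frame glutamate codons (GAA or GAG).
TUBB2A: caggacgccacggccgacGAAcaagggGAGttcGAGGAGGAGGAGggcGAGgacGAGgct
TUBB2B: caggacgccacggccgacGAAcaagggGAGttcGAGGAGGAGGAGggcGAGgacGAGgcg
TUBB3: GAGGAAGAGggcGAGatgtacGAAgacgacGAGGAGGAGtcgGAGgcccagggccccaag
TUBB4B: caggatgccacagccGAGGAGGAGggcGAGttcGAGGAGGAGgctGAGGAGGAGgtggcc

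TUBB2A and TUBB2B differ there by a single substitution, T1335G, with TUBB2A's base first and positions counted from 1 at the start codon. Both last codons (gct and gcg) encode alanine, so the tail ends of these isotypes are the same in protein. TUBB3 ends on a lysine codon, unlike the other 3. The tails of the 6 beta isotypes hold 7 (TUBB6) to 10 (TUBB4B) glutamate codons of 20. Over the whole coding sequence, identity was 84.4 to 97.2% between alpha genes (6 pairs), 81.0 to 98.2% between beta genes (15 pairs) and 55.1 to 58.1% between an alpha and a beta gene (24 pairs). TUBB2A and TUBB2B were the closest pair at 98.2%, and TUBA1A and TUBA1B followed at 97.2%.

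The positions of the isotypes are given here in GRCh38 with the GENCODE 29 gene bounds. TUBA1B (chr12:49127782-49131397, minus strand), TUBA1A (chr12:49184796-49189324, minus strand) and TUBA1C (chr12:49188736-49274603, plus strand) are neighbours on chromosome 12, and TUBA4A is on chromosome 2 (chr2:219249711-219278170, minus strand). TUBB2A (chr6:3153669-3157526, minus strand) and TUBB2B (chr6:3224261-3231730, minus strand) are neighbours on chromosome 6, and TUBB lies farther along it (chr6:30720201-30725426, plus strand). TUBB3 is at chr16:89921392-89938761, TUBB4B at chr9:137241213-137243707 and TUBB6 at chr18:12307669-12344320, all 3 on the plus strand.

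Reads from such similar genes can be hard to assign. The share of 50-base stretches of a transcript that also occur in a transcript of another gene was 89.4% for TUBB3, 65.5% for TUBB2A, 62.7% for TUBA1B, 52.2% for TUBB2B and 41.7% for TUBA1A, and it was 9.89% for TUBB4B, 5.25% for TUBA4A and 0.993% for TUBB6. With stretches of 151 bases, the longer of the 2 read lengths the sources give, it was 19% for TUBA1B, 6.85% for TUBA1A, 49.3% for TUBB2A and 39.3% for TUBB2B, and still 88.7% for TUBB3, whose partner is the read-through transcript of its own locus. TUBA1A and TUBA1C also share 490 exonic bases on opposite strands. Longer opposite-strand overlaps with other genes exist for TUBA1B (1309 bases), TUBB6 (837, with AFG3L2), TUBA1C (666), TUBA4A (627, with STK16) and TUBB (538). The libraries were directional, but the strand setting of the counting is not given in the sources used here. The split of reads between TUBA1A, TUBA1B and TUBA1C, and between TUBB2A and TUBB2B, is therefore uncertain. So is the part of opposite-strand reads in the isotypes with such overlaps.

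Values are FPKM, fragment counts divided by exon length and by library depth, which the authors computed with Cufflinks and which allow levels to be compared between genes per length. FPKM hide the number of reads. The step between low values put the depth of a library at 0.85 to 1.17 times that of the median library. KDM3A (chr2:86440647-86492716) was expressed at 33.5 ± 2.50 FPKM in RD Scramble and 12.2 ± 1.09 in RD KDM3A-sh2, and at 29.7 ± 2.14 in Rh30 Scramble and 14.1 ± 1.15 in Rh30 KDM3A-sh2 (SD, n = 3 each), with no overlap in either line. The muscle lineage markers DES, MYOG and MYOD1 were at 100 FPKM or more in the mean of every group, and the blood marker PTPRC did not exceed 0.0933 FPKM in any library. MYF5, a further muscle marker, was at or near 0 in both lines.

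With Scramble, the lines carried a different set of tubulin messages. RD cells expressed TUBA1B, TUBB and TUBA1A at similar high levels, and Rh30 cells expressed far more TUBA1B and TUBB and less TUBA1A, TUBB3 and TUBB6. In RD Scramble the order of the means ran TUBA1B (1613.1 ± 51.5 FPKM), TUBB (1496.4 ± 46.5), TUBA1A (1353.0 ± 49.5), TUBB4B (925.8 ± 33.4), TUBA1C (588.5 ± 16.5), TUBA4A (508.4 ± 41.4), TUBB3 (324.3 ± 15.0), TUBB6 (224.5 ± 0.623), TUBB2B (56.1 ± 1.66) and TUBB2A (49.0 ± 2.51), each an SD with n = 3. No 2 neighbours in that order overlapped in their libraries. In Rh30 Scramble it ran TUBA1B (2972.4 ± 109.5 FPKM), TUBB (2171.1 ± 84.7), TUBB4B (940.3 ± 37.4), TUBA1A (677.2 ± 7.43), TUBA4A (458.7 ± 26.6), TUBA1C (449.6 ± 11.6), TUBB6 (123.0 ± 4.38), TUBB3 (51.9 ± 4.94), TUBB2B (44.9 ± 2.05) and TUBB2A (17.0 ± 0.576). There TUBA4A overlapped with TUBA1C and TUBB3 with TUBB2B, and the other neighbours did not overlap.

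**Figure D1:**
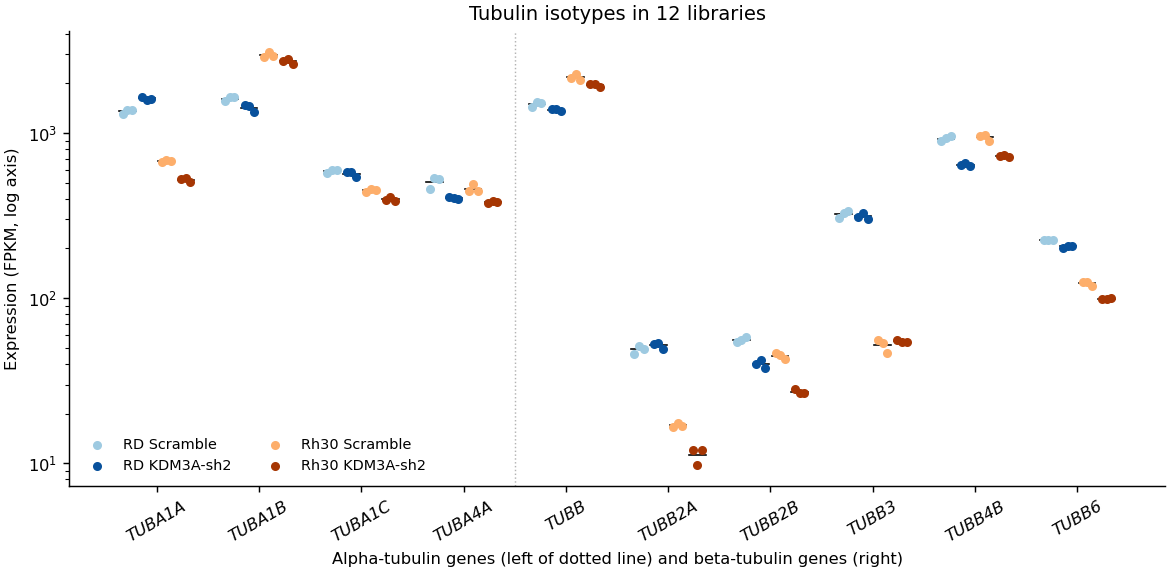
Expression of the 10 tubulin isotypes in FPKM on a log axis, with a point for each of the 12 libraries and a black line at the mean of each group of 3. TUBA1A is higher with KDM3A-sh2 in RD cells and lower in Rh30 cells, and TUBB3 has means of 324.3 and 312.8 FPKM in the RD groups and 51.9 and 54.8 in the Rh30 groups.

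Rh30 Scramble was compared with RD Scramble by limma (with its trend option) on log2(FPKM + 1), with p-values adjusted over all 18357 genes tested and a threshold of 0.05. Of the 10 isotypes, 2 were higher and 6 lower in Rh30 cells, and 2 did not pass the test. Among all genes tested, 74.5% passed, 35.0% higher and 39.6% lower, so a difference between the lines was the usual case. The median log2 difference was -0.35 over the isotypes and -0.039 over all genes. When all libraries were set to an equal sum (TPM scale), the median of all genes moved to -0.141. With upper-quartile scaling it moved the other way, to 0.032. The values below carry that uncertainty in both directions.

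TUBB3, the class III beta-tubulin used as a marker of neurons, differed most. Its libraries read 307.3, 329.4 and 336.1 FPKM in RD Scramble and 55.8, 53.5 and 46.3 in Rh30 Scramble. The lines were far apart, and the log2 difference was -2.62 (SE 0.075, adjusted p = 1.64e-07). Of 12 other neural markers, 6 were tested between the lines, and 5 of these were lower in Rh30 cells. The neurofilament genes NEFM (17.5 FPKM in RD Scramble and 0.0507 in Rh30 Scramble, log2 difference -4.14) and NEFL (5.86 and 0.0219, -2.74), INA (12.7 and 0.00970, -3.76), the synaptic gene SYP (2.40 and 0.350, -1.33) and UCHL1 (725.8 and 357.8, -1.02) were lower. DCX, which encodes a microtubule-binding protein of migrating neurons, went the other way, at 0.300 and 95.6 FPKM. NEFM, NEFL, INA and SYP were under 1 FPKM in Rh30 Scramble, and DCX was so in RD Scramble. Each of them entered the test through the line where it is high. The filter thus fixed their direction, and no conclusion is drawn from the count. A further 5 markers, among them ELAVL3 and ELAVL4, were under 1 FPKM in all 12 libraries.

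TUBB2A, a class II isotype, was 2.89-fold lower in Rh30 than in RD Scramble (log2 difference -1.48, SE 0.057, adjusted p = 6.25e-07), and its close relative TUBB2B 19.9% lower (log2 difference -0.31, SE 0.050, adjusted p = 0.000957). TUBA1A was 2.00-fold lower (SE 0.034 on the log2 scale, adjusted p = 3.79e-07), TUBB6, the class V isotype, 1.82-fold lower (log2 difference -0.86, adjusted p = 1.05e-06), and TUBA1C 1.31-fold lower (log2 difference -0.39, adjusted p = 4.75e-05). The 2 isotypes with the highest levels went the other way. TUBA1B was 1.84-fold higher in Rh30 cells (log2 difference 0.88, adjusted p = 1.16e-06) and TUBB, the widely expressed class I isotype, 1.45-fold higher (log2 difference 0.54, adjusted p = 1.54e-05). TUBA4A (log2 difference -0.15, 95% interval -0.31 to 0.02) and TUBB4B (0.02, -0.08 to 0.12) did not pass the test. TUBA4A passed it in 5 of 16 alternative analyses.

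In RD cells, KDM3A-sh2 was accompanied by more TUBA1A message and less of 6 other isotypes. TUBB4B and TUBB2B fell most, to means 30.7 and 28.5% lower, and TUBA4A was 20.6% lower. The falls of TUBA1B, TUBB and TUBB6 were 7.78 to 11.7%, and TUBA1C, TUBB2A and TUBB3 did not pass the test. Of the 17988 genes tested in RD cells, 41.1% passed, 21.6% higher and 19.5% lower, against 7 of 10 isotypes with 1 higher and 6 lower. The median log2 difference was -0.12 over the isotypes and 0.007 over all genes. The 3 libraries of one group lay wholly above or below those of the other in 7 isotypes, as in 53.4% of all genes tested.

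TUBA1A, an alpha isotype abundant in developing neurons, read 1295.9, 1383.8 and 1379.3 FPKM in RD Scramble and 1654.2, 1594.9 and 1606.0 in RD KDM3A-sh2. Every KDM3A-sh2 library lay above every Scramble library, and the mean rose 1.20-fold (log2 difference 0.26, SE 0.036, adjusted p = 0.00151). This made TUBA1A the tubulin gene with the highest level in RD KDM3A-sh2, above TUBA1B and TUBB, which overlapped with each other there. TUBA1B read 1553.7, 1641.0 and 1644.6 FPKM with Scramble and 1477.2, 1452.9 and 1341.4 with KDM3A-sh2. The groups did not overlap, and TUBA1B fell by 0.18 on the log2 scale (SE 0.046, adjusted p = 0.0182), a call that was lost in 6 of 16 alternatives.

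TUBA4A, the alpha isotype encoded on chromosome 2, read 461.0, 537.4 and 526.8 FPKM in RD Scramble and 410.0, 402.3 and 398.6 in RD KDM3A-sh2. The first Scramble library was the lowest of its group but still above all KDM3A-sh2 libraries, and the log2 difference was -0.33 (SE 0.059, adjusted p = 0.00459). TUBA1C, the fourth alpha isotype, had means of 588.5 ± 16.5 and 568.3 ± 25.4 FPKM (SD, n = 3 each) with overlapping libraries, a log2 difference of -0.05 (95% interval -0.15 to 0.05, adjusted p = 0.372).

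TUBB4B, a class IV beta-tubulin found in most tissues and in cilia, read 891.6, 927.4 and 958.3 FPKM in RD Scramble and 641.3, 654.5 and 629.3 in RD KDM3A-sh2. The gap between the groups was larger than the spread within them, and the log2 difference was -0.53 (SE 0.036, adjusted p = 8.26e-05). TUBB2B, a class II isotype of the developing nervous system, read 54.6, 55.7 and 57.9 FPKM against 39.9, 42.4 and 38.0, again without overlap, a log2 difference of -0.47 (SE 0.052, adjusted p = 0.000567). Its near copy TUBB2A did not follow. It had means of 49.0 ± 2.51 and 51.8 ± 2.44 FPKM (SD, n = 3 each), and the log2 difference of 0.08 had a 95% interval from -0.05 to 0.21 (adjusted p = 0.285). The order of the pair thus turned, with TUBB2B above TUBB2A in RD Scramble and below it in RD KDM3A-sh2, with no overlap in either group.

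The class I isotype TUBB, with the highest level of the beta genes, had means of 1496.4 ± 46.5 FPKM in RD Scramble and 1380.0 ± 16.9 in RD KDM3A-sh2 (SD, n = 3 each), a log2 difference of -0.12 (adjusted p = 0.0261) that lost its call in 8 of 16 alternatives. TUBB6 had the least spread in RD Scramble, at 223.8, 224.9 and 224.7 FPKM with Scramble, and was at 202.3, 206.1 and 208.1 with KDM3A-sh2. The groups did not overlap (log2 difference -0.13, SE 0.028, adjusted p = 0.0112), but the call was lost on the TPM scale (adjusted p = 0.0516) and without limma's trend (adjusted p = 0.0537). TUBB3 was at 307.3, 329.4 and 336.1 FPKM with Scramble and 309.9, 328.0 and 300.5 with KDM3A-sh2, fully interleaved, and its log2 difference was -0.05 (95% interval -0.17 to 0.06, adjusted p = 0.432).

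The cells of the 2 RD groups differed in their proliferation markers, and in bulk RNA fewer cells of a kind and less RNA per cell cannot be told apart. All 20 such markers fell with KDM3A-sh2 in RD cells (median log2 difference -0.94), and their summed level was 2043.6 to 2100.8 FPKM in the Scramble libraries and 1051.5 to 1085.4 in the KDM3A-sh2 libraries. KIF20A, a mitotic kinesin, changed most (log2 difference -1.33, adjusted p = 2.3e-05). In Rh30 cells 4 of 20 fell and none rose (median -0.10), with sums of 3439.0 to 3549.2 and 3158.4 to 3343.5 FPKM. Over all genes tested, 19.5% were called lower in RD cells and 13.2% in Rh30 cells. The part of proliferation in the tubulin differences was not tested.

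In Rh30 cells, 8 of the 10 isotypes fell with KDM3A-sh2 and none rose. TUBB2B, TUBB2A, TUBA1A and TUBB4B fell most, to means 22.8 to 39.5% lower. TUBB6, TUBA4A, TUBA1C and TUBB were 9.83 to 19.3% lower, and TUBA1B and TUBB3 did not pass the test. Of 17803 genes tested in Rh30 cells, 28.5% passed, 15.3% higher and 13.2% lower. The median log2 difference was -0.28 over the isotypes and 0.031 over all genes. In 9 isotypes the groups did not overlap, as in 45.8% of all genes tested.

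**Figure D2:**
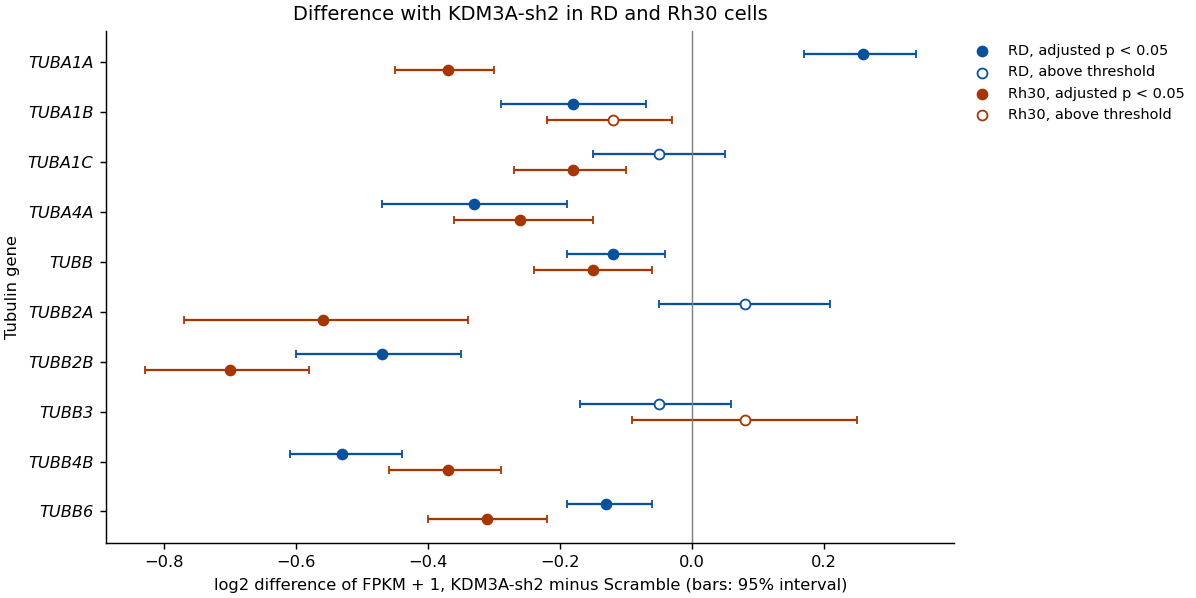
Differences between KDM3A-sh2 and Scramble for each isotype on the log2(FPKM + 1) scale in RD cells (blue) and Rh30 cells (orange), with 95% intervals from limma. Filled points passed the threshold on the adjusted p, and open points did not. TUBA1A lies at 0.26 in RD and -0.37 in Rh30, TUBB4B and TUBB2B lie to the left in both lines, and the intervals of TUBB3 include 0 in both.

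TUBA1A read 668.9, 683.4 and 679.2 FPKM in Rh30 Scramble and 524.9, 537.0 and 505.5 in Rh30 KDM3A-sh2. All KDM3A-sh2 libraries lay below all Scramble libraries, and the log2 difference was -0.37 (SE 0.032, adjusted p = 0.000511). TUBA1B, with the highest level of all isotypes in Rh30 cells, read 2897.2, 3098.0 and 2922.0 FPKM with Scramble and 2740.0, 2826.0 and 2634.6 with KDM3A-sh2. The groups did not overlap, but the log2 difference of -0.12 (95% interval -0.22 to -0.03) did not pass after adjustment (adjusted p = 0.0644). It passed in 2 of 16 alternatives. TUBA1C (log2 difference -0.18, adjusted p = 0.0102) and TUBA4A (-0.26, adjusted p = 0.0078) were lower without overlap, with means of 449.6 ± 11.6 and 396.1 ± 10.5 FPKM for TUBA1C and 458.7 ± 26.6 and 383.8 ± 4.85 for TUBA4A (SD, n = 3 each).

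Both class II genes fell in Rh30 cells. TUBB2B read 46.6, 45.5 and 42.6 FPKM with Scramble and 28.2, 26.8 and 26.6 with KDM3A-sh2, the largest relative drop of any isotype in either line (log2 difference -0.70, SE 0.052, adjusted p = 0.000313). TUBB2A read 16.5, 17.6 and 16.8 FPKM against 12.1, 9.74 and 12.0, with the second KDM3A-sh2 library lowest (log2 difference -0.56, SE 0.089, adjusted p = 0.00543). TUBB2A is the isotype with the lowest level in Rh30 cells, and 60.3% of its 50-base stretches also occur in TUBB2B.

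TUBB4B read 956.5, 967.0 and 897.6 FPKM in Rh30 Scramble and 730.6, 733.2 and 713.3 in Rh30 KDM3A-sh2, again without overlap (log2 difference -0.37, SE 0.037, adjusted p = 0.000834). TUBB6 read 125.7, 125.4 and 118.0 FPKM against 98.8, 98.8 and 100.3 (log2 difference -0.31, SE 0.038, adjusted p = 0.00208). TUBB had means of 2171.1 ± 84.7 and 1957.7 ± 39.9 FPKM (SD, n = 3 each) and a log2 difference of -0.15 (adjusted p = 0.0253), a call that was lost in 8 of 16 alternatives. TUBB3 was at 55.8, 53.5 and 46.3 FPKM with Scramble and 55.9, 54.5 and 54.0 with KDM3A-sh2, and its log2 difference of 0.08 had a 95% interval from -0.09 to 0.25 (adjusted p = 0.432).

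The difference between the lines in the KDM3A-sh2 effect was tested as an interaction over all 12 libraries. In this fit 27.8% of 18517 genes passed, 14.4% with a higher and 13.4% with a lower effect in Rh30 than in RD cells. Of the isotypes, 5 passed, 4 with a lower effect in Rh30 cells (TUBA1A, TUBB2A, TUBB2B and TUBB6) and 1 with a higher one (TUBB4B). For TUBA1A the effects had opposite signs and each passed its own test, and the difference was -0.63 on the log2 scale (SE 0.047, adjusted p = 5.44e-06). For TUBB2A the difference was -0.64 (SE 0.107, adjusted p = 0.00137), and for TUBB6 -0.18 (SE 0.042, adjusted p = 0.00941). TUBA1A and TUBB2A kept this call in all 21 alternatives, and TUBB6 lost it in 2. The differences of TUBB2B (-0.23, adjusted p = 0.0359) and TUBB4B (0.16, adjusted p = 0.042) were small beside the effects themselves and lost their calls in 11 and 14 of 21 alternatives. The effect on KDM3A also differed between the lines, by 0.37 (adjusted p = 0.0388), with less depletion in Rh30 cells, and its part in these differences was not tested.

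Summed over the isotypes, alpha-tubulin FPKM was 3880.2 to 4162.0 in the RD Scramble libraries and 3885.0 to 4124.6 in RD KDM3A-sh2, with overlap (means 4063.0 and 4014.2, exact permutation p = 0.6, two-sided). The fall of TUBA1B and TUBA4A and the rise of TUBA1A thus left the alpha sum within its spread. Beta-tubulin FPKM summed to 2968.1 to 3136.8 with Scramble and 2585.6 to 2673.1 with KDM3A-sh2, 14.4% lower on average without overlap (exact permutation p = 0.1, the smallest that 3 against 3 allows). The ratio of the alpha to the beta sum was 1.31 to 1.33 in RD Scramble and 1.50 to 1.56 in RD KDM3A-sh2 (exact permutation p = 0.1).

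In Rh30 cells both sums were lower with KDM3A-sh2. The alpha sum was 4447.1 to 4730.5 FPKM with Scramble and 3910.9 to 4159.6 with KDM3A-sh2, 11.5% lower, and the beta sum was 3228.3 to 3476.0 and 2818.0 to 2906.6 FPKM, 14.1% lower, each without overlap (exact permutation p = 0.1 for each). The ratio of the sums had means of 1.36 and 1.40 and overlapping libraries (exact permutation p = 0.3). Between the lines with Scramble, the alpha sum was 12.2% and the beta sum 8.85% higher in Rh30 cells, which the TPM scale reduced to 0.055 and 0.012 on the log2 scale.

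The shares of TUBA1A, TUBA1B, TUBB and TUBB3 in their sums differed more between the lines with Scramble than with the shRNA in either line, whereas the TUBB4B share differed by -2.01 percentage points between the lines and by -5.72 in RD and -2.85 in Rh30 cells with KDM3A-sh2. TUBA1A held 33.3 ± 0.083% of the alpha sum in RD Scramble and 14.9 ± 0.36% in Rh30 Scramble, and TUBA1B 39.7 ± 0.31% and 65.2 ± 0.26% (SD, n = 3 each). With KDM3A-sh2 the TUBA1A share was 40.3 ± 0.92% in RD and 12.9 ± 0.049% in Rh30 cells, a change of 7.03 and -1.92 percentage points, and the TUBA1B share was 35.5 ± 0.81% and 67.7 ± 0.31%. TUBA1C and TUBA4A each held 9.52 to 14.5% of the alpha sum in the mean of every group.

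Among the beta genes, TUBB held 48.6 ± 0.49% in RD Scramble and 52.4 ± 0.44% in RD KDM3A-sh2, and 64.8 ± 0.69% and 68.1 ± 0.21% in the Rh30 groups. TUBB4B gave up share in both lines, with 30.1 ± 0.43% and 24.4 ± 0.092% in the RD groups and 28.1 ± 0.48% and 25.2 ± 0.074% in the Rh30 groups. The TUBB3 share was 10.5 ± 0.18% and 11.9 ± 0.34% in RD and 1.55 ± 0.12% and 1.91 ± 0.027% in Rh30 cells, so a level without a called difference was a larger part of a smaller sum. Each of these 5 shares differed between Scramble and KDM3A-sh2 without overlap in both lines (exact permutation p = 0.1 for each). TUBB6 held 7.30 ± 0.21% and 7.81 ± 0.21% in RD and 3.68 ± 0.081% and 3.45 ± 0.092% in Rh30 cells, and TUBB2A and TUBB2B held 0.392 to 1.97% each in the group means.

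**Figure D3:**
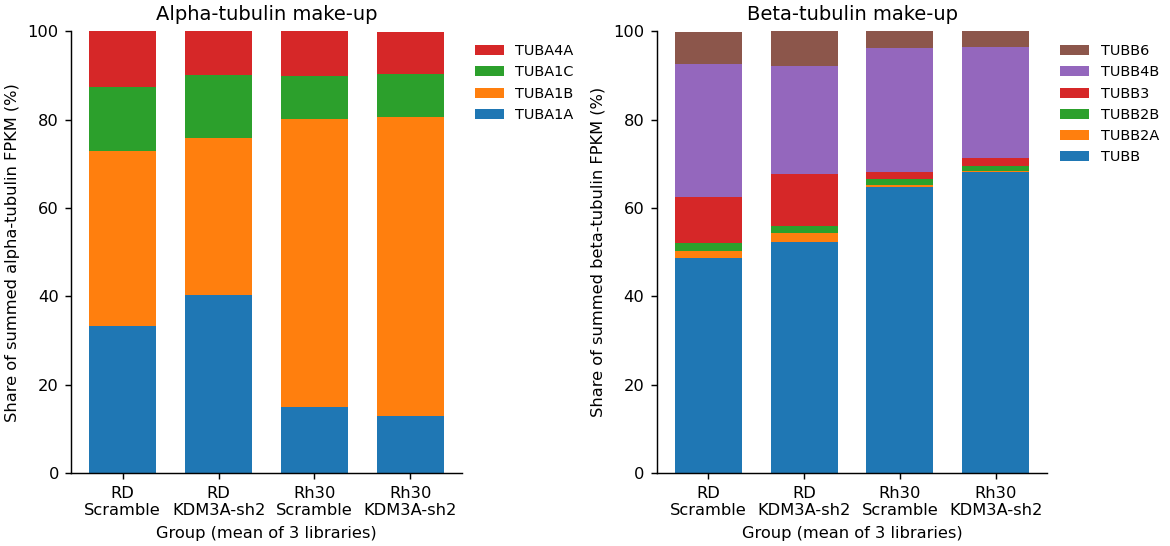
Mean share of each isotype in the summed alpha-tubulin FPKM (left) and summed beta-tubulin FPKM (right) of each group of 3 libraries, stacked to 100%. TUBA1B fills 65.2% of the alpha sum in Rh30 Scramble against 39.7% in RD Scramble, and the TUBB4B share is smaller with KDM3A-sh2 in both lines.

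The table also lists 39 alpha- and beta-tubulin pseudogenes, of which 11 had a mean of at least 1 FPKM and 3 of at least 10. TUBBP1, a processed copy of TUBB, was at 226.7 ± 3.89 FPKM in RD Scramble and 206.5 ± 7.93 in RD KDM3A-sh2, and at 342.9 ± 9.82 and 285.6 ± 6.46 in the Rh30 groups (SD, n = 3 each). TUBAP2, a processed copy of an alpha gene, was at 168.8 ± 3.67, 155.3 ± 10.9, 257.1 ± 9.71 and 226.0 ± 3.69 FPKM in the same order. Both had the order of groups of TUBB and TUBA1B. TUBBP1 shares 29.2% of its 50-base stretches with TUBB, and TUBAP2 22.5% with TUBA1B, so how much of their level belongs to the parent genes cannot be told apart in this table. Pseudogenes made up 3.83 to 5.38% of all alpha-tubulin FPKM and 8.28 to 10.7% of all beta-tubulin FPKM in the group means. Adding them to the sums changed the direction of no isotype's share.

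Of 13 other tubulin genes, 9 were tested in RD cells and 6 in Rh30 cells. The gamma-tubulins, which nucleate microtubules at centrosomes, were higher with KDM3A-sh2 where they passed. TUBG1 rose in RD cells, from 71.6 ± 2.33 to 81.0 ± 2.96 FPKM (log2 difference 0.18, adjusted p = 0.0181). TUBG2 rose in RD cells, from 13.4 ± 0.969 to 16.5 ± 0.270 FPKM (0.28, adjusted p = 0.0129), and in Rh30 cells, from 10.9 ± 0.632 to 13.7 ± 1.54 FPKM (0.31, adjusted p = 0.0449). No other tubulin gene outside the 10 isotypes passed the test in either line.

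The proteins that act on tubulin were taken from lists written for this description, and their counts stand beside the 41.1% of all genes that passed in RD and the 28.5% in Rh30 cells. Among 23 genes of the gamma-tubulin ring and of microtubule nucleation, 15 fell and 3 rose in RD cells (median log2 difference -0.37), and 3 fell and 4 rose in Rh30 cells (median 0.00). In RD cells MZT2A, a small subunit of the ring, fell from 350.7 ± 19.2 to 196.1 ± 18.3 FPKM (-0.84, adjusted p = 0.000232), TPX2, a spindle nucleation factor, from 134.3 ± 2.54 to 80.8 ± 1.62 (-0.73, adjusted p = 2.3e-05) and HAUS4, an augmin subunit, from 18.0 ± 2.71 to 10.8 ± 0.465 (-0.68, adjusted p = 0.00237). In Rh30 cells HAUS4 rose (0.36, adjusted p = 0.0294), as did AKAP9, a Golgi and centrosome scaffold (0.47, adjusted p = 0.00246), and NEDD1, which anchors the ring, fell (-0.65, adjusted p = 0.00033). AKAP9 also rose (0.44, adjusted p = 0.00116) and NEDD1 also fell (-0.52, adjusted p = 0.00736) in RD cells. TPX2 also fell in Rh30 cells (-0.14, adjusted p = 0.019). The interaction passed for 13 of the 23, 12 with a higher effect in Rh30 cells, beside 27.8% of all genes (14.4% higher). TPX2 is itself a mitotic gene. The proliferation markers given above fell in RD cells, where 15 genes of this list fell and 3 rose, and a link was not tested.

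Tubulin folds through prefoldin, the CCT chaperonin and the TBC cofactors with ARL2. Of these 22 genes, 9 fell and 2 rose in RD cells (median -0.12), and 5 fell and 3 rose in Rh30 cells (median -0.04), so that 11 and 8 of the 22 passed in either direction. TBCD, a cofactor that holds beta-tubulin, fell in RD cells from 45.4 ± 6.27 to 28.2 ± 1.26 FPKM (-0.66, adjusted p = 0.00178), and CCT6A, a chaperonin subunit, from 471.3 ± 26.6 to 365.9 ± 24.0 (-0.36, adjusted p = 0.00326). ARL2, the small GTPase of the same pathway, rose from 46.7 ± 2.38 to 68.8 ± 3.35 (0.55, adjusted p = 0.000385). In Rh30 cells CCT3 (0.25, adjusted p = 0.00188) and TBCA (0.20, adjusted p = 0.0346) rose and CCT2 fell (-0.22, adjusted p = 0.0467). The chaperonin subunits TCP1, CCT2, CCT4, CCT5, CCT7 and CCT8 also fell in RD cells (-0.36 to -0.10), where CCT3 did not pass (0.01). TCP1 (-0.12), CCT5 (-0.18) and CCT8 (-0.13) fell in Rh30 cells as well, and CCT3 was the only subunit that rose.

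Among the enzymes that modify the tail or a lysine of tubulin, 18 were tested, of which 7 rose and 3 fell in RD cells (median 0.11) and 4 rose and 3 fell in Rh30 cells (median 0.08). In RD cells TTLL4, a glutamylase, fell from 98.1 ± 8.20 to 63.6 ± 2.98 FPKM (-0.62, adjusted p = 0.000583), and TTLL1, also a glutamylase (0.48, adjusted p = 0.00833), and SIRT2, a tubulin deacetylase (0.58, adjusted p = 7.65e-05), rose. In Rh30 cells VASH1, a carboxypeptidase that removes the terminal tyrosine, fell from 16.8 ± 0.746 to 12.3 ± 0.783 FPKM (-0.42, adjusted p = 0.00549), and TTLL3, a glycylase (0.36, adjusted p = 0.0144), and TTLL12 (0.35, adjusted p = 0.0206) rose. TTLL4 (-0.18, adjusted p = 0.025) and SIRT2 (0.17, adjusted p = 0.0318) moved the same way in Rh30 cells. VASH1 rose (0.26, adjusted p = 0.00783) and TTLL12 fell (-0.26, adjusted p = 0.00394) in RD cells. Both directions occurred in each line.

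Microtubule-associated proteins and stathmins split as well, with 6 of 19 higher and 5 lower in RD cells (median 0.10) and 7 higher and 5 lower in Rh30 cells (median 0.04). In RD cells 3 lattice-binding proteins rose, MAP2 from 31.6 ± 3.00 to 57.6 ± 3.24 FPKM (0.85, adjusted p = 0.000242), MAP4 from 154.3 ± 0.863 to 235.2 ± 2.78 (0.61, adjusted p = 2.27e-05) and MAP1A from 77.8 ± 1.72 to 112.7 ± 2.89 (0.53, adjusted p = 9.03e-05). All 3 also rose in Rh30 cells, MAP2 by 0.43 (adjusted p = 0.01), MAP4 by 0.29 (adjusted p = 0.00127) and MAP1A by 0.21 (adjusted p = 0.025). In Rh30 cells DCLK1, a kinase with doublecortin domains, fell from 20.5 ± 0.254 to 6.27 ± 0.587 FPKM (-1.57, adjusted p = 8.15e-05) and MAP1B from 26.1 ± 0.759 to 17.5 ± 0.301 (-0.55, adjusted p = 0.000529), while EML2 rose (0.77, adjusted p = 0.00938). MAP1B also fell in RD cells (-0.29, adjusted p = 0.021).

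Of the plus-end, severing and depolymerising proteins, 8 of 22 rose and 7 fell in RD cells (median -0.08), and 6 of 21 rose and 4 fell in Rh30 cells (median 0.02). MAPRE3, the EB3 plus-end protein of muscle and neurons, rose in RD cells from 7.19 ± 0.929 to 26.4 ± 1.13 FPKM (1.75, adjusted p = 3.41e-05), the largest change among the genes named from these lists. The mitotic depolymerases KIF18B (-1.02, adjusted p = 6.18e-05) and KIF2C (-0.82, adjusted p = 7.16e-05) fell there. In Rh30 cells KATNAL1, a katanin (0.55, adjusted p = 0.00288), and CLIP1, a plus-end linker (0.34, adjusted p = 0.0143), rose, and CLIP2 fell (-0.35, adjusted p = 0.00543). KATNAL1 (0.64, adjusted p = 0.00339) and CLIP1 (0.69, adjusted p = 0.000379) also rose in RD cells, and CLIP2 rose there (0.24, adjusted p = 0.0213). KIF18B (0.28, adjusted p = 0.0107) and KIF2C (0.24, adjusted p = 0.00367) rose in Rh30 cells.

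**Figure D4:**
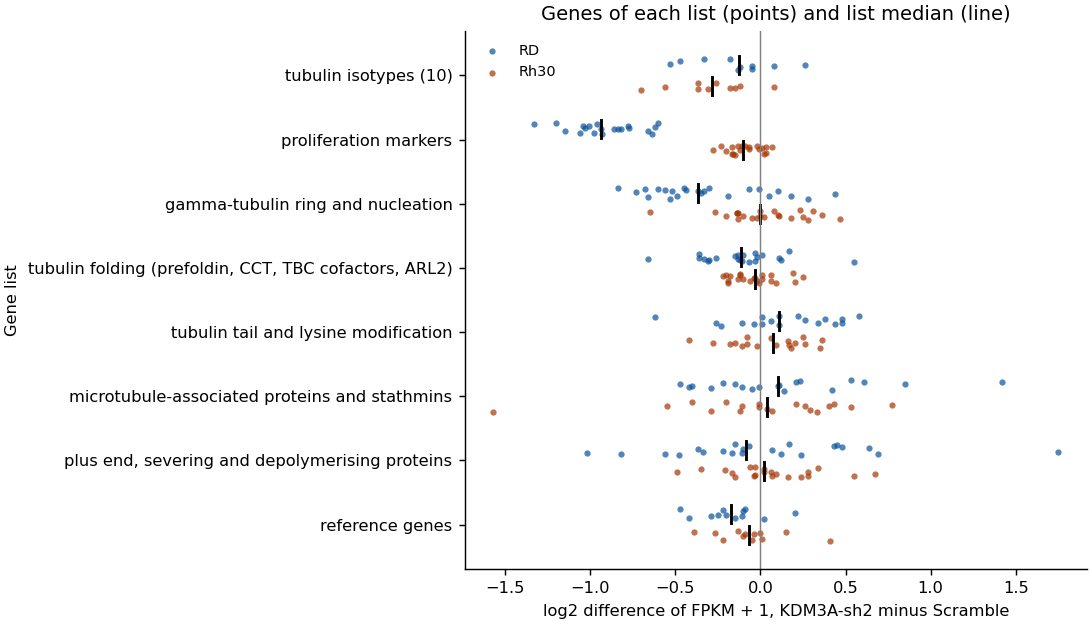
Differences between KDM3A-sh2 and Scramble on the log2(FPKM + 1) scale for each gene of 8 lists in RD cells (blue) and Rh30 cells (orange), with a black line at the median of the list; vertical scatter within a row only separates the points. The proliferation markers have a median of -0.94 in RD and -0.10 in Rh30 cells, whereas the tubulin isotypes have medians of -0.12 and -0.28.

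Over the 12 libraries, the genes with the pattern most like each isotype were found by Pearson's correlation of log2(FPKM + 1) among 10993 genes whose mean reached 10 FPKM. The 12 points fall into 4 groups in 2 lines, so high values are common and are given as a description. TUBA1A was most like CREB3L1 and ST3GAL5 (0.9984 for each), TUBA1B like SUFU (0.9970) and PCBP2 (0.9962), and TUBA1C like LDHAP4 (0.9929) and RAB20 (0.9918). For TUBA4A the closest were CLINT1 (0.9700) and ACTG1 (0.9478), lower than for any other isotype. TUBB was closest to PSMA7 (0.9968) and TNNI2 (0.9961), TUBB2A to NFE2L1 (0.9974) and DENND2A (0.9969), and TUBB2B to LAMTOR5P1 (0.9832) and ACLY (0.9824). TUBB3 followed NNAT and EGFLAM (0.9989 each), TUBB4B followed HN1 (0.9903) and H3F3B (0.9824), and TUBB6 followed FOSL1 (0.9990) and TNS3 (0.9981).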

How the data were processed

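Poly(A) mRNA of 12 directional libraries was sequenced from 1 end, with 50 cycles in the study's Methods and 151 bases in the sample labels. Per the submitters' notes the authors aligned to GRCh38 with GSNAP and SAMtools and computed FPKM with Cufflinks. The deposited FPKM are not logged and hold no counts. The annotation release and strand setting are not given in the sources used here. Of 66095 rows, 120 that repeat an identifier were left out (the highest mean stayed), and 17 genes with the placeholder 999999999 in some library, none of them an isotype, were dropped from the fits concerned. Summed FPKM per library ran from 1198300 to 1379197, and Pearson's r between libraries of a group from 0.994 to 0.995.

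Genes averaging 1 FPKM or more over a comparison's libraries were tested on log2(FPKM + 1) with limma 3.58.1 in R 4.3.3 (trend, two-sided, Benjamini-Hochberg adjusted over all genes, threshold 0.05), in place of the ANOVA that the Methods name. The pseudocount of 1 understates changes of low genes. Fold and percent changes are of mean FPKM. Sums and shares were compared with exact two-sided permutation tests (SciPy 1.17.1). Fits were tested on simulated data. Alternatives were a pseudocount of 0.1, no filter, 10 FPKM in some library, TPM and upper-quartile scaling, no trend, ANOVA on unlogged FPKM, a replicate block, all 12 libraries in one fit, summed repeat entries, and leaving out each library.

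Coding sequences, aligned globally with Biopython 1.88, and positions came from GENCODE 29. Shared stretches compare the principal transcript of a gene with all transcripts. Besides all isotypes, up to 3 genes of each list were named per line, those that passed with the largest change, averaged 10 FPKM or more and did not overlap between groups, and for each isotype the 2 most correlated genes. The other CCT subunits and RPL19 are named outside this rule, and some named genes are given in both lines. The isotypes and lists were chosen with earlier results of these data known. One gene that the naming rule selects and the coding ends of the alpha genes are not reported here.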

Additional observations from a re-analysis of the deposited data

Results flagged for a closer look

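The effect of KDM3A-sh2 differed between the lines, by the interaction test over 12 libraries, for TUBA1A (-0.63, Rh30 minus RD on the log2 scale), TUBB2A (-0.64), TUBB2B (-0.23), TUBB6 (-0.18) and TUBB4B (0.16). For TUBA1A this was a rise in RD cells and a fall in Rh30 cells, each without overlap between the groups. For TUBB2A it was a fall in Rh30 cells beside an interval around 0 in RD cells. The other 3 isotypes fell in both lines. Their interaction calls were lost in 11 (TUBB2B), 14 (TUBB4B) and 2 (TUBB6) of 21 alternatives, and those of TUBA1A and TUBB2A in none.

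In 4 isotypes the share of the alpha or beta sum moved in opposite directions in the 2 lines, with every KDM3A-sh2 library on one side of every Scramble library. The share of TUBA1A changed by 7.03 percentage points in RD and -1.92 in Rh30 cells, TUBA1B by -4.25 and 2.51, TUBB2A by 0.378 and -0.115, and TUBB6 by 0.508 and -0.222. The difference between the lines was not tested for these shares. Shares of one sum depend on each other, so the opposite changes of TUBA1A and TUBA1B are not separate observations.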

How the results depend on the processing

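With 3 libraries a group and FPKM in place of counts, differences under about 0.15 on the log2 scale lay near the limit of the test. So did some larger ones. TUBA1B in RD cells (-0.18) lost its call in 6 of 16 alternatives, and the interaction of TUBB2B (-0.23) in 11 of 21. TUBA1C in Rh30 cells (-0.18) kept its call in all 16. The number of isotypes called was 7 in RD cells, with 4 without limma's trend and 5 to 7 when 1 library was left out, and 8 in Rh30 cells (7 to 8 with 1 library left out). Between the lines with Scramble it was 8 (8 to 9). For the interaction it was 5, with 3 without the filter, 2 by ANOVA on unlogged FPKM, 2 with the replicate block (TUBA1A and TUBB2A in both cases) and 3 to 5 with 1 library left out. It was 3 without Rh30 Scramble replicate 1, Rh30 KDM3A-sh2 replicate 2, RD Scramble replicate 2 or RD KDM3A-sh2 replicate 1. Replicate numbers did not pair the libraries, since the correlation of deviations between equal numbers was -0.0738 to 0.0476, and the block gave 5 calls in RD, 8 in Rh30 and 9 between the lines.

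A change of sign occurred only where the value itself was near 0. The interaction of TUBA1B was -49.6 FPKM by ANOVA on unlogged values, against 0.06 on the log2 scale. TUBB4B between the lines was -0.09 on the TPM scale and -0.0044 without RD Scramble replicate 1. The alpha sum in RD cells, at -0.02 on the log2 scale, was 0.017 on the TPM scale and -0.05 to 0.0056 with 1 library left out. The TUBA1C share in Rh30 cells was -0.125 to 0.045 percentage points with 1 library left out, and above 0 without Rh30 Scramble replicate 3. TUBA1A kept its direction and its call in each comparison under every alternative run. The cause of these changes was not tested.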

Other observations

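Tubulin is a common loading reference, and the study's immunoblots were normalised to it, so other genes of that use were set beside the isotypes. Of 12 reference genes, 7 fell and 1 rose with KDM3A-sh2 in RD cells (median log2 difference -0.17), and 4 fell and 2 rose in Rh30 cells (median -0.07), beside medians of 0.01 and 0.03 over all genes, of which 41.1% passed in RD cells (19.5% lower) and 28.5% in Rh30 cells (13.2% lower). In RD cells GUSB fell from 52.6 ± 5.10 to 37.5 ± 0.794 FPKM (adjusted p = 0.00212), HPRT1 from 26.2 ± 0.910 to 19.3 ± 1.03 (adjusted p = 0.00141) and TBP from 34.8 ± 1.01 to 28.3 ± 2.87 (adjusted p = 0.0187). In Rh30 cells RPLP0 rose from 749.0 ± 24.7 to 991.8 ± 15.8 FPKM (adjusted p = 0.000427) and YWHAZ fell from 399.8 ± 24.0 to 305.1 ± 11.7 (adjusted p = 0.00292). Each ± is an SD with n = 3. RPL19, the internal control of the study's qRT-PCR, fell in RD cells (log2 difference -0.22, adjusted p = 0.0038) and rose in Rh30 cells (0.15, adjusted p = 0.0259). Protein was not measured in these libraries.

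Of 8 muscle lineage markers tested, 5 fell and 2 rose in RD cells, and 3 fell and 2 rose in Rh30 cells. Over all genes tested, 41.1% passed in RD cells, 21.6% higher and 19.5% lower. In Rh30 cells 28.5% passed, 15.3% higher and 13.2% lower, and the marker counts here stand beside these shares. CHRNA1, the muscle acetylcholine receptor alpha subunit, rose in RD cells (log2 difference 0.42, adjusted p = 0.000127) and fell in Rh30 cells (-0.64, adjusted p = 8.55e-05). MYL4 (-0.70) and CDH15 (-0.60) fell in RD cells, and MYOG (0.56) and MYOD1 (0.28) rose in Rh30 cells. Of 6 neural markers tested in RD cells 4 rose and none fell, among them NEFM, a neurofilament (1.31, from 17.5 ± 1.11 to 44.8 ± 1.82 FPKM), and INA (0.35). In Rh30 cells only 2 neural markers were tested, of which DCX rose (0.40) and UCHL1 fell (-0.40). Of 5 epithelial markers, 2 were tested in RD cells, where none passed, and 3 in Rh30 cells, where 1 fell.

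TUBA3FP, annotated as a processed transcript, rose in Rh30 cells, where 8 isotypes fell, from 19.6 ± 1.51 to 28.7 ± 0.595 FPKM (log2 difference 0.53, adjusted p = 0.00197), and was at 5.28 ± 0.172 and 4.36 ± 0.531 in RD cells. It was singled out after its values were seen, and 59.9% of its 50-base stretches also occur in other genes.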
